A study of Mus musculus with 8 samples.

Results

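Replication-dependent histone genes encode the bulk of the core histones, the proteins that DNA wraps around in the nucleosome. On these arrays 21 such genes could be read singly, out of 22180 genes with a probe set of their own. They were chosen by name: a probe set had to name 1 gene, with a symbol of the current H2ac, H2bc, H3c or H4c form or the older Hist form, and where a gene had more than 1 such probe set, the brightest over the 8 arrays was taken. Of the 21, 6 encode H2A, 8 encode H2B and 7 encode H4. No H3 gene has a probe set of its own here, and the linker histone H1 genes carry other symbols. Only H2ac21 had a second probe set, with a mean log2 level of 4.45. RefSeq lists the 21 as protein-coding genes, 16 on chromosome 13 and 5 on chromosome 3, where the large histone gene clusters lie. The annotation does not say whether a gene is replication-dependent: H2ac1 and H2bc1 encode testis forms and H2bc21 a variant known from olfactory neurons, so for these the label is a matter of the symbol alone.

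A cell that copies its DNA must double its histones, so these genes are transcribed and their mRNAs are stable mainly in S phase. Most of their mRNAs end in a stem-loop, bound by the protein Slbp, in place of a poly(A) tail. Replacement variants such as Macroh2a1 are made outside this program, H2ax is made both within and outside it, and chaperones such as Chaf1a carry new histones to DNA. Annulus fibrosus is the fibrous ring of the intervertebral disc, a tissue whose adult cells divide rarely.

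The study measured the thoracic annulus fibrosus of Black 6 mice with 8 Affymetrix arrays, in 4 groups of 2: WT at 2 months, ENT1-null at 2 months, WT at 6 months and ENT1-null at 6 months. ENT1 is a nucleoside transporter, and in the ENT1-null mice exons 2 to 4 of its gene, Slc29a1, are deleted, with no tissue restriction named. Each array held RNA pooled from 5 to 6 tissues. Nothing in the labels says that both pools of a group had separate donors, so p-values measure the spread between pools, which may be technical. Slc29a1 read 10.71 and 10.69 (log2) in the 2-month WT pools, against 9.21 and 9.36 in the ENT1-null pools of that age, then 10.34 and 10.43 in WT against 8.90 and 8.80 at 6 months. It was lower in ENT1-null by limma at both ages (-1.41 ± 0.09, SE, adjusted p = 0.0072, and -1.53 ± 0.09, adjusted p = 0.00035, 2 arrays a group), as the labels say.

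The promoters of the genes that follow show how the families differ in sequence. RefSeq's promoter table (GRCm38.p6, 250 bases before each gene's start and 50 after) held 19 of the 21 genes. The search covered 4 motifs on both strands, 3 of them classical elements of histone promoters: the CCAAT box, the TATAAA form of the TATA box, and the octamer ATTTGCAT. The fourth, GGTCCG, was chosen after the H4 sequences had been read. No motif overlaps another in the sequences shown. The sequences below are the 250 bases before the start, 5′ to 3′ in the gene's direction, with matches to any of the 4 motifs (or their reverse complements) in capitals. H2bc12, H2bc18 and H2ac21 are shown as H2B and H2A genes that rose in ENT1-null tissue at 6 months, H2ac1 as an H2A gene that was not called, and H4c17 and H4c9 as the H4 genes with the largest rises.
H2bc12, chr13:22035571-22035820, plus strand: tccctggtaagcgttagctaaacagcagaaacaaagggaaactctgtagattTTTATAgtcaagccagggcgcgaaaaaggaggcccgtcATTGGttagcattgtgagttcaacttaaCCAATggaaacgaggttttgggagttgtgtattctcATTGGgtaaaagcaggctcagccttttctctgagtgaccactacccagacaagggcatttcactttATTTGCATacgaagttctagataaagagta
H2bc18, chr3:96269450-96269699, plus strand: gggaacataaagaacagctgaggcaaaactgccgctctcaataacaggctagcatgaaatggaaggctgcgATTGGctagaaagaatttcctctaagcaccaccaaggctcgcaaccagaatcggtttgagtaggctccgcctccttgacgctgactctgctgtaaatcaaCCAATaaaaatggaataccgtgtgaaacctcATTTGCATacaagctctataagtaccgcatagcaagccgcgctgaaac
H2ac21, chr3:96219635-96219884, plus strand: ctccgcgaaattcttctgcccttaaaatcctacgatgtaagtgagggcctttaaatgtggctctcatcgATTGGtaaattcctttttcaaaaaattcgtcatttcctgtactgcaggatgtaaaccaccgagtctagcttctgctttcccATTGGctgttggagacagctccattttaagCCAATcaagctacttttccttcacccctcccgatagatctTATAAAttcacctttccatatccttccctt
H2ac1, chr13:23934187-23934436, plus strand: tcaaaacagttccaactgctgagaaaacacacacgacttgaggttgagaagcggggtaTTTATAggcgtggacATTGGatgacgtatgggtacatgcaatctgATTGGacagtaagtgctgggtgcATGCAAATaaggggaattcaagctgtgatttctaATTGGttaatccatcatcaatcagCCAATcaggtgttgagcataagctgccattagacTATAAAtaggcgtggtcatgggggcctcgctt
H4c17, chr13:21811496-21811745, plus strand: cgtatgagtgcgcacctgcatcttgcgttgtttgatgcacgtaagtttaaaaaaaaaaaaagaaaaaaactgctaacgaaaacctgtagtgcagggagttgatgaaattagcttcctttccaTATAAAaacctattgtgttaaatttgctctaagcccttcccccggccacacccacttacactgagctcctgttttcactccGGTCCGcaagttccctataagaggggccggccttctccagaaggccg
H4c9, chr13:22041363-22041612, minus strand: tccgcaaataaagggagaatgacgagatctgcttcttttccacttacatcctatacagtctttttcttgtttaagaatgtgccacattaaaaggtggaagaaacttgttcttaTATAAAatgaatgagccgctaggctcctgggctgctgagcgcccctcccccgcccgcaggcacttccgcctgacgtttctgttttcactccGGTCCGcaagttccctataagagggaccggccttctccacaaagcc
The octamer was found in 5 of 7 H2B promoters, H2bc12 and H2bc18 among them, in 3 of 6 H2A promoters and in 0 of 6 H4 promoters, against 1.74% of all 32851 promoters in the table. CCAAT was found in 6 of 6 H2A, 7 of 7 H2B and 1 of 6 H4 promoters, against 37.4% of all promoters. TATAAA was found in 5, 4 and 4 of these, against 13.6% of all. The matches of H2ac12, H2ac15 and H4c1 lay in the 50 bases after the start. Before the start, the nearest lay at -32 in H2ac1 and -30 in H2ac21. In H4c17, H4c9, H2bc12 and H2bc22 it lay at -128, -137, -198 and -212. A match to TATAAA is therefore not always placed as a TATA box of the named gene. GGTCCG was found in 5 of 6 H4 promoters, in 1 of 7 H2B promoters and in 0 of 6 H2A promoters, against 8.25% of all. H4c17 and H4c9 shared an unbroken run of 38 bases around it, starting at positions -60 and -59 from their start sites: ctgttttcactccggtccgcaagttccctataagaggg. The longest run that any other pair of the 6 H4 promoters shared was 11 bases. The promoter of H2ac1 had 4 matches to CCAAT, 2 to TATAAA and 1 to the octamer, motifs also found in promoters of genes that rose. A match is a description of the letters and does not show that a factor binds.

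H2bc12 shares its promoter with H2ac12: the 2 genes are transcribed away from each other from starts 178 bases apart, so the H2bc12 sequence, read on the other strand, covers most of the H2ac12 promoter and the same matches are counted for both. H2bc1 and H2ac1 are arranged the same way, with starts 281 bases apart. H2ac12 read between 2.998 and 3.36 on the 8 arrays and H2bc1 between 2.85 and 3.18, close to the lowest value in the table (2.48), and neither was called between the genotypes at either age (the larger difference, H2bc1 at 2 months, was 0.15 ± 0.11, SE). Levels of different probe sets cannot be ranked against each other, because probes differ in how strongly they bind.

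**Figure D1:**
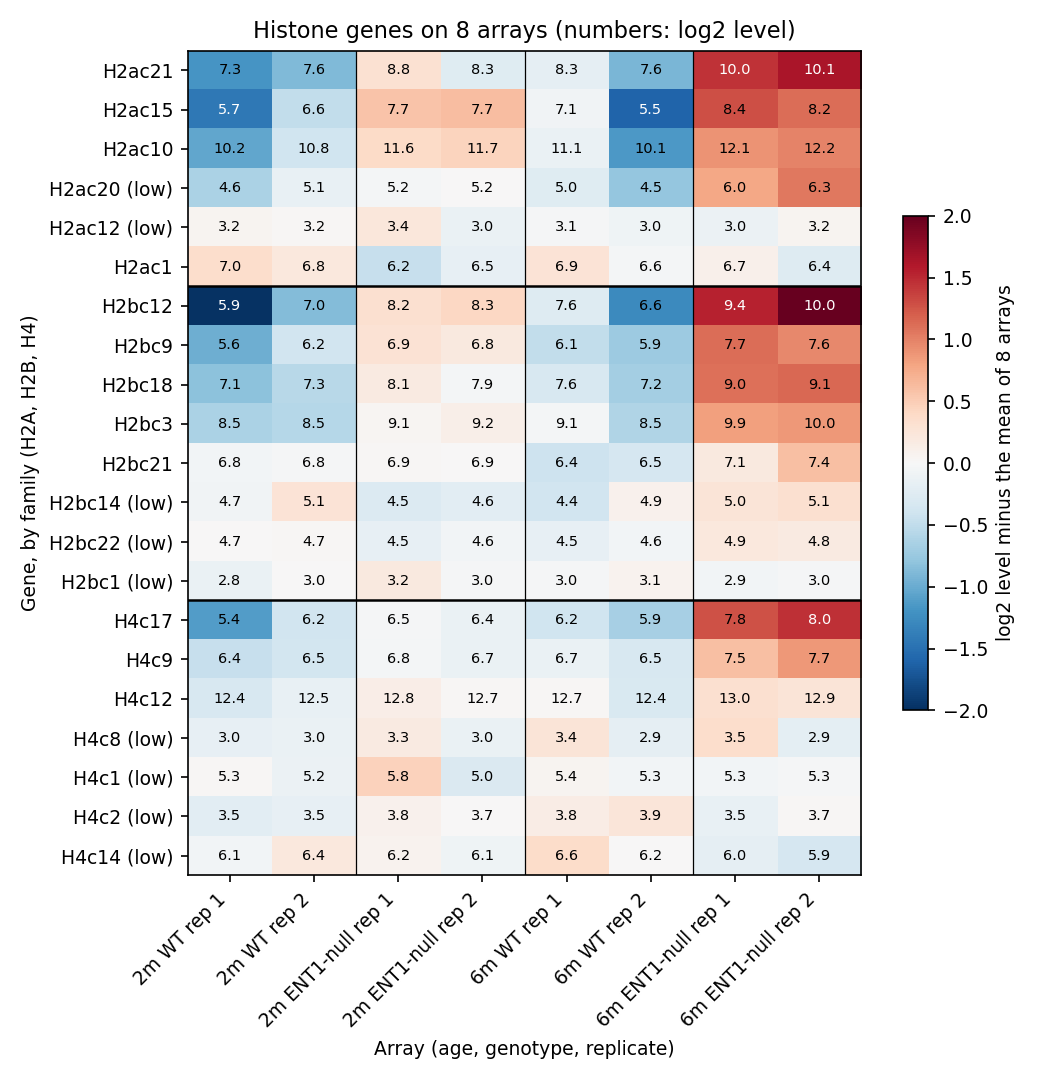
Log2 level of each of the 21 histone genes (rows, by family) on each of the 8 arrays (columns), with colour showing the level minus the gene's mean over the 8 arrays. Genes marked low had a mean under the filter level of 6.21. H2bc12 runs from 5.91 in a WT pool at 2 months to 9.99 in an ENT1-null pool at 6 months, while H2ac12 and H2bc1 stay between 2.85 and 3.36.

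At 6 months, some histone genes of each of the 3 families were higher in ENT1-null than in WT annulus fibrosus. With every gene in the fit, 13 of the 21 were called higher (limma, Benjamini-Hochberg adjusted p below 0.05), 0 were called lower and 8 were not called, where 14.2% of all 22180 genes were called higher and 12.2% lower. Their median difference was 0.77 (log2), against -0.06 over all genes. By family, 4 of 6 H2A, 6 of 8 H2B and 3 of 7 H4 genes were called higher, with medians of 1.50, 0.96 and 0.04. The main test left out genes with a mean under the 30th percentile of genes, 6.21 on the log2 scale. That kept 12 of the 21 histone genes and 15526 genes in all, and 11 of the 12 were called higher, beside 21.2% of the genes tested, and 0 lower, beside 17.6%. H2bc9 and H4c17 passed that filter only through the ENT1-null pools, since their WT means lay under it. H4c14 was the reverse case: its WT mean of 6.32 lay above the filter level, and its mean over all arrays, 6.18, lay under it. The filter thus kept 2 genes that rose and left out 1 whose difference was below 0, so the count over all 21 is the one to read first. These are pooled bulk tissues, in which more cells of a type and more RNA per cell cannot be told apart.

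H2B genes held the largest rise. H2bc12 read 5.91 and 7.02 in the WT pools at 2 months, 8.21 and 8.30 in the ENT1-null pools at 2 months, 7.62 and 6.62 in the WT pools at 6 months, and 9.42 and 9.99 in the ENT1-null pools at 6 months. Both ENT1-null pools lay above both WT pools at each age, and the WT pools of an age lay about 1 log2 unit apart. The difference at 6 months was 2.59 ± 0.42 (log2, SE), 6.00-fold, with an adjusted p of 0.0026. H2bc18, an H2B gene of the chromosome 3 cluster (chr3:96269700-96270192), read 7.07 and 7.34, then 8.08 and 7.87, then 7.57 and 7.22, then 8.999 and 9.05, in the same order of groups. Its pools were closer together than those of H2bc12 in 3 of the 4 groups, the 2-month ENT1-null group being the exception, and it had the smallest adjusted p of the histone genes (1.63 ± 0.15, adjusted p = 0.00043). H2bc9 read 5.65 and 6.25, 6.92 and 6.81, 6.14 and 5.90, and 7.75 and 7.59. It rose by a like amount, 1.65 ± 0.19 (adjusted p = 0.00068).

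H2bc3 rose from 9.06 and 8.50 in the WT pools at 6 months to 9.92 and 9.96 in the ENT1-null pools (1.16 ± 0.16, adjusted p = 0.0015). H2bc21 encodes an H2B variant, also called H2be, that is known from olfactory neurons. It read 6.79 and 6.82 in WT against 6.88 and 6.87 in ENT1-null at 2 months, and 6.44 and 6.52 in WT against 7.05 and 7.45 in ENT1-null at 6 months. Its WT pools were lower at 6 than at 2 months and its ENT1-null pools higher, and at 6 months it rose by 0.77 ± 0.13 (adjusted p = 0.0028), the smallest rise of the 5 H2B genes tested. The other 3 H2B genes lay under the filter level. Of those, H2bc22 was called in the fit over every gene (0.30 ± 0.09, adjusted p = 0.043), and H2bc14, at 0.44 ± 0.17 (adjusted p = 0.092), was not.

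Among the H2A genes, H2ac21 (chr3:96219885-96220354) read 7.33 and 7.62 in WT against 8.82 and 8.27 in ENT1-null at 2 months, and 8.33 and 7.59 in WT against 9.95 and 10.14 in ENT1-null at 6 months. At 6 months its ENT1-null pools stood more than 1 log2 unit above the higher WT pool (2.09 ± 0.26, 4.25-fold, adjusted p = 0.00098). Its dimmer second probe set did not show a rise of that size, at 4.35 and 4.57 in WT against 4.42 and 4.48 in ENT1-null at 2 months, and 4.30 and 4.43 in WT against 4.62 and 4.44 in ENT1-null at 6 months. H2ac20 starts 995 bases from H2ac21 on the opposite strand. It read 4.61 and 5.10, 5.21 and 5.25, 5.01 and 4.47, and 6.01 and 6.29, under the filter level, and was called in the fit over every gene (1.42 ± 0.21, adjusted p = 0.0022). H2ac10 read 10.21 and 10.84 in WT against 11.64 and 11.70 in ENT1-null at 2 months, and 11.11 and 10.10 in WT against 12.14 and 12.23 in ENT1-null at 6 months. The WT pools of H2ac10 at 6 months differed by about 1 log2 unit, and the difference at that age was 1.58 ± 0.32 (adjusted p = 0.0064). H2ac15 read 5.70 and 6.63, 7.69 and 7.74, 7.06 and 5.53, and 8.42 and 8.24. At 6 months its WT pools were the farthest apart of any of the 12 genes, and its rise of 2.04 ± 0.47 (adjusted p = 0.012) lost its call without replicate 1 of the ENT1-null group at 6 months (1.95, adjusted p = 0.061; 0.0020 to 0.061 over 16 alternatives).

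H2ac1 encodes the H2A form made in the testis. It read 6.99 and 6.84 in WT against 6.18 and 6.48 in ENT1-null at 2 months, and 6.91 and 6.60 in WT against 6.74 and 6.38 in ENT1-null at 6 months. The pools overlapped at 6 months and the difference was not called (-0.19 ± 0.17, adjusted p = 0.39, 95% interval -0.58 to 0.19). It was the single gene of the 12 with a difference below 0.

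Of the H4 genes, which encode largely the same protein, H4c17 (chr13:21811746-21812150) read 5.44 and 6.18 in the 2-month WT pools, 6.53 and 6.42 in the 2-month ENT1-null pools, 6.16 and 5.89 in the 6-month WT pools, and 7.83 and 8.01 in the 6-month ENT1-null pools. Its ENT1-null pools at 6 months were well above every other pool (1.90 ± 0.22, 3.72-fold, adjusted p = 0.00075). H4c9, whose promoter shares the 38-base run, read 6.39 and 6.48, 6.81 and 6.72, 6.73 and 6.53, and 7.46 and 7.72, and rose by 0.96 ± 0.12 (adjusted p = 0.00084). H4c12 was bright on every array, at 12.36 and 12.53, 12.81 and 12.70, 12.70 and 12.37, and 13.00 and 12.94. The highest value on any array was 13.8, so H4c12 was read near the top of the scale, and its rise of 0.44 ± 0.12 (adjusted p = 0.027) was the smallest called in the 12. That call was lost without replicate 2 of the 6-month WT group (0.27, adjusted p = 0.16), without either ENT1-null replicate of 6 months (0.40 and 0.47, adjusted p = 0.11 and 0.071) and with only the groups compared in the fit (adjusted p = 0.054), over a range of 0.012 to 0.16 in 17 alternatives. The remaining H4 genes, H4c1, H4c2, H4c8 and H4c14, lay under the filter level and were not called. H4c14 read 6.13 and 6.39, 6.25 and 6.10, 6.55 and 6.19, and 6.00 and 5.85, with both ENT1-null pools at 6 months below both WT pools (-0.45 ± 0.15, adjusted p = 0.059).

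**Figure D2:**
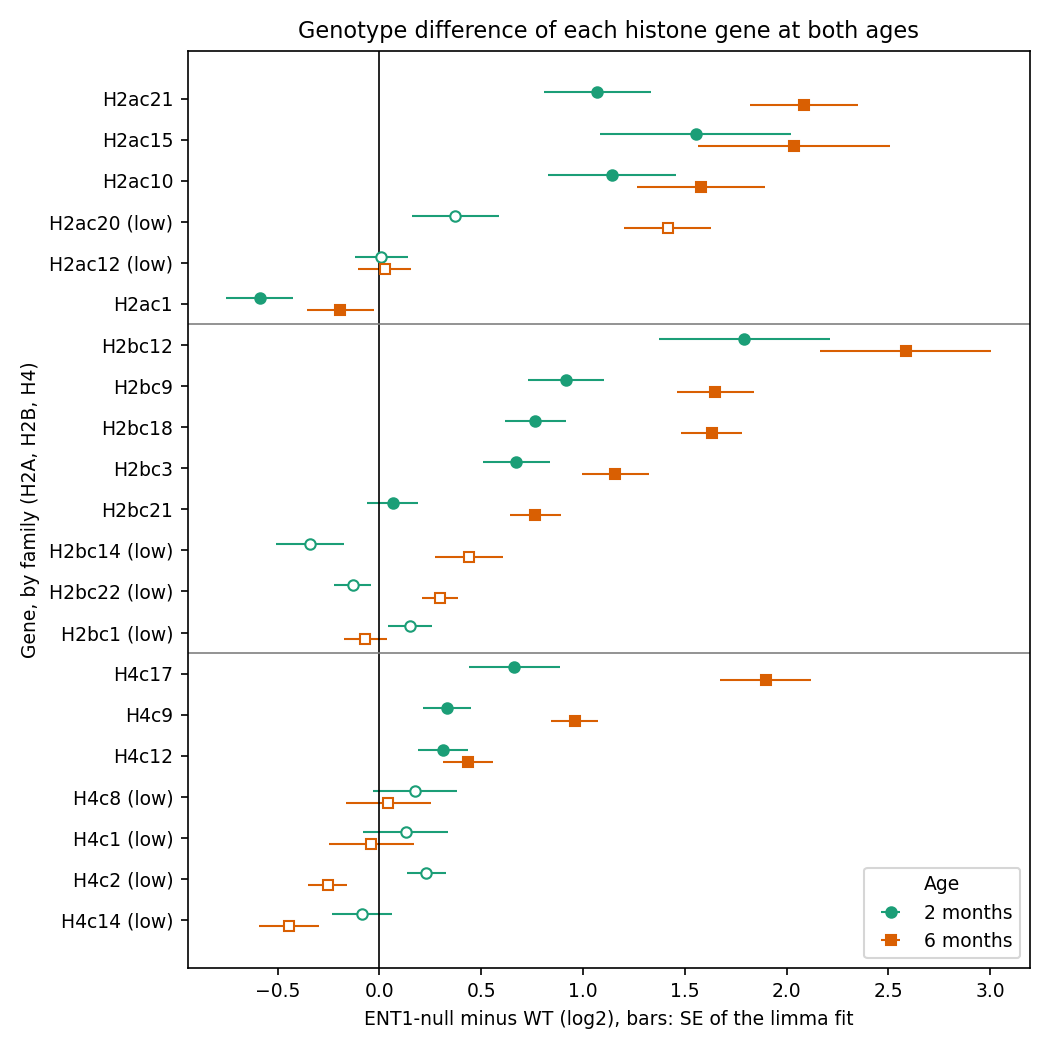
Difference between ENT1-null and WT (log2, horizontal axis) of each of the 21 histone genes (vertical axis, by family) at 2 and 6 months, from limma, with bars for the SE and open symbols for genes under the filter level. At 6 months the differences run from -0.45 for H4c14 to 2.59 for H2bc12, and at 2 months from -0.59 for H2ac1 to 1.79 for H2bc12.

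At 2 months the same comparison had no histone gene past the threshold. The count was 0 of 12 by limma, and 0 of 21 with every gene in the fit, beside 0.683% of the 15526 and 0.131% of the 22180 genes called in either direction. At an unadjusted p under 0.05 there were 11 of the 12 and 12 of the 21, beside 19.4% and 15.3% of genes. Both ENT1-null pools lay above both WT pools for 14 of the 21, where 17.0% of genes did so, and below them for 3 (31.3% of genes). The median difference of the 21 was 0.31 and that of the 12 tested was 0.72, against -0.04 over all genes tested.

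The largest differences at 2 months were in H2bc12 (1.79 ± 0.42, adjusted p = 0.083), H2ac15 (1.55 ± 0.47, adjusted p = 0.14), H2ac10 (1.14 ± 0.32, adjusted p = 0.11) and H2ac21 (1.07 ± 0.26, adjusted p = 0.091). H2bc18 had the smallest adjusted p of the histone genes at this age too (0.77 ± 0.15, adjusted p = 0.060). H2bc21 read 6.79 to 6.88 in the 4 pools (0.06 ± 0.13, adjusted p = 0.82). H2ac1 was lower in both ENT1-null pools than in both WT pools (-0.59 ± 0.17, adjusted p = 0.11). How many genes passed moved with single pools: 3 did without replicate 2 of the 2-month WT group (H2bc12, H2bc9 and H4c17), and 4 did without either 6-month WT replicate (H2ac10, H2ac15, H2bc18 and H2bc3), whose pools enter only through the shared estimate of spread.

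Whether the genotype difference itself changed between the ages was tested as the difference at 6 months minus that at 2 months. It was above 0 for the 12 genes tested, with a median of 0.67 against 0.05 over all genes, and 0 of 12 passed (0 of 21 with every gene in the fit), beside 4.45% of the genes tested and 0.0496% of all genes. At an unadjusted p under 0.05 there were 6 of 12, beside 27.0% of genes. The nearest to the threshold were H2bc18 (0.87 ± 0.21, adjusted p = 0.056), H4c17 (1.23 ± 0.31, adjusted p = 0.063), H2bc21 (0.70 ± 0.18, adjusted p = 0.063) and H4c9 (0.63 ± 0.17, adjusted p = 0.067). For H2bc12, whose genotype difference was the largest at both ages, the change was 0.79 ± 0.59, with a 95% interval of -0.59 to 2.18. The difference for H2ac10, H2ac15 and H4c12 fell below 0 without replicate 2 of the 6-month WT group (-0.07, -0.28 and -0.04).

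Within the ENT1-null mice, 7 of the 12 histone genes were higher at 6 than at 2 months and 0 were lower, beside 11.9% of genes called higher and 10.2% lower. With every gene in the fit the count was 7 of 21, beside 7.58% of genes, with H2ac20 called (0.93 ± 0.21, adjusted p = 0.025) and H2bc12 not (adjusted p = 0.056). H2ac21 rose by 1.503 ± 0.26 (adjusted p = 0.0081), H4c17 by 1.45 ± 0.22 (adjusted p = 0.0051), H2bc18 by 1.05 ± 0.15 (adjusted p = 0.0042) and H4c9 by 0.82 ± 0.12 (adjusted p = 0.0043). H2bc12, H2bc9 and H2bc3 were also called, at 1.45, 0.80 and 0.76, and these 3 were the genes whose calls were lost without replicate 1 or without replicate 2 of the 2-month ENT1-null group (4 called each). Without replicate 1 of the 6-month ENT1-null group 5 were called, H2bc21 now among them, and without replicate 2 of it 3 were called, H2ac21 being lost as well. H2ac10 and H2ac15 differed by 0.52 ± 0.32 and 0.61 ± 0.47 and were not called.

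Within WT mice, 0 of the 12 histone genes were called between 6 and 2 months, as were 0 of all 15526 genes tested (0.0%). At an unadjusted p under 0.05 limma had 1 of the 12, H2bc21, which was lower at 6 months (-0.32 ± 0.13, adjusted p = 0.34), and 13.3% of genes. The WT pools of the 2 ages overlapped for 10 of the 12, and of the others 1 was higher and 1 lower at 6 months (13.5% and 35.9% of genes). H2bc12, the gene with the largest WT difference between ages, was at 0.66 ± 0.42 (adjusted p = 0.53). The 2 age comparisons and the 2 genotype comparisons share groups, so their values are set side by side and are not independent of each other.

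Most of the 12 histone genes tested shifted together between the 2 pools of each WT group, and less so within the ENT1-null groups. The level of each of the 12 genes was centred on its mean over the 8 arrays, and the median over the 12 was taken on each array. It was -0.90 and -0.39 in the WT pools at 2 months, 0.16 and 0.02 in the ENT1-null pools at 2 months, -0.15 and -0.68 in the WT pools at 6 months, and 1.00 and 0.97 in the ENT1-null pools at 6 months. Over all 21 genes the same median moved less, at -0.31 and -0.15, 0.13 and -0.03, -0.13 and -0.33, and 0.35 and 0.59, in that order. Of the 12, H2bc9 and H4c17 had passed the filter only through the ENT1-null pools. By the median over the 12, the highest WT pool was replicate 1 at 6 months and the lowest was replicate 1 at 2 months. Within the 2-month WT group 11 of the 12 genes were higher in replicate 2, with a median gap of 0.28, and within the 6-month WT group 11 of 12 were higher in replicate 1, with a median gap of 0.34. The median absolute gap over all genes was 0.10 in both groups. In the ENT1-null pairs 7 of 12 genes at 2 months and 4 of 12 at 6 months were higher in replicate 1. The median gaps there were 0.05 and -0.07 (replicate 1 minus replicate 2), in which opposite signs cancel. Without regard to sign they were 0.10 and 0.18, against 0.12 and 0.13 over all genes. Taken by family, the centred median at 6 months in ENT1-null was 1.09 and 1.05 for the 4 H2A genes, 1.10 and 0.96 for the 5 H2B genes, and 0.60 and 0.86 for the 3 H4 genes, of which H4c12 was near the top of the scale.

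Most marker genes of blood-forming cells were called higher in ENT1-null at 6 months, as were most of the histone genes. At 6 months 21.2% of all genes tested were called higher and 17.6% lower, with a median of -0.03. The counts of the lists that follow are to be read beside these shares. Erythroid markers, such as Klf1, the master regulator of red cell genes (1.92 ± 0.20 at 6 months), and Epor, the erythropoietin receptor (1.60 ± 0.18), were called higher at 6 months for 8 of 8 tested, with a median of 2.06. Neutrophil markers, among them Cd177 (2.68 ± 0.35), a surface protein of neutrophils, were called for 18 of 18, with a median of 2.57. B cell markers, such as Cd79a (1.75 ± 0.24), part of the B cell receptor, were called for 7 of 9, with a median of 1.00. Without replicate 1 of the 6-month ENT1-null group the counts were 10 for the neutrophil and 4 for the B cell list, and without replicate 2 of it 11 for the neutrophil list. The summed linear signal of the erythroid list, as log2, lay between 10.48 and 10.98 in WT at 2 months, 12.16 and 12.25 in ENT1-null at 2 months, 10.81 and 11.72 in WT at 6 months, and 13.24 and 13.58 in ENT1-null at 6 months. That of the neutrophil list lay between 13.19 and 14.38, 15.03 and 15.35, 13.15 and 14.45, and 15.89 and 15.97, and that of the B cell list between 10.52 and 10.91, 11.05 and 11.05, 10.71 and 10.94, and 11.81 and 11.84. In both WT groups the pool with the higher histone median was also the pool with the higher erythroid, neutrophil and B cell signal. The ENT1-null groups had no such common order. Replicate 2 had the lower histone median in both, but the higher neutrophil signal at 2 months. At 6 months it had the higher erythroid and B cell signals. Calls at 2 months were 1 of 8 erythroid, 0 of 18 neutrophil and 0 of 9 B cell genes, beside 0.683% of genes tested. Their medians at that age were 1.28, 1.50 and 0.50. Both ENT1-null pools lay above both WT pools for 8, 18 and 4 of these genes (19.0% of genes tested). They lay below for 1 B cell gene (33.2% of genes tested). Array values have no 0, so none of these markers could be read as absent. Their part in the histone differences was not tested.

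Most markers of the tissue itself went the other way at 6 months. Of 20 genes of annulus and cartilage, 15 were called lower in ENT1-null and 2 higher, with a median of -0.82. Of all genes tested, 17.6% were called lower and 21.2% higher. Sox9, a regulator of cartilage genes, fell by 1.11 ± 0.09. Both ENT1-null pools lay below both WT pools for 17 of the 20, and above them for 3, Col1a1, Col1a2 and Tnmd (36.8% and 35.6% of genes tested). Col1a1 read 11.08 and 10.87 in WT against 12.44 and 12.20 in ENT1-null, and Col1a2 read 10.36 and 10.16 against 11.56 and 11.34. The summed signal of the 20 genes lay between 16.17 and 16.21 in WT at 2 months, 15.96 and 16.09 in ENT1-null at 2 months, 15.94 and 15.99 in WT at 6 months, and 15.45 and 15.59 in ENT1-null at 6 months. The markers of the labelled tissue were thus bright on every array. Skeletal muscle markers ranged over about 3 log2 units between pools, from a summed signal of 11.43 in replicate 1 of the 6-month ENT1-null group to 14.50 in replicate 2 of the 2-month ENT1-null group. In both WT groups the pool with the higher histone median had the higher muscle signal too. In both ENT1-null groups the pool with the higher histone median had the lower muscle signal. The ENT1-null pools at 6 months had less muscle signal than the WT pools of that age. The part of these lists in the histone differences was not tested.

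**Figure D3:**
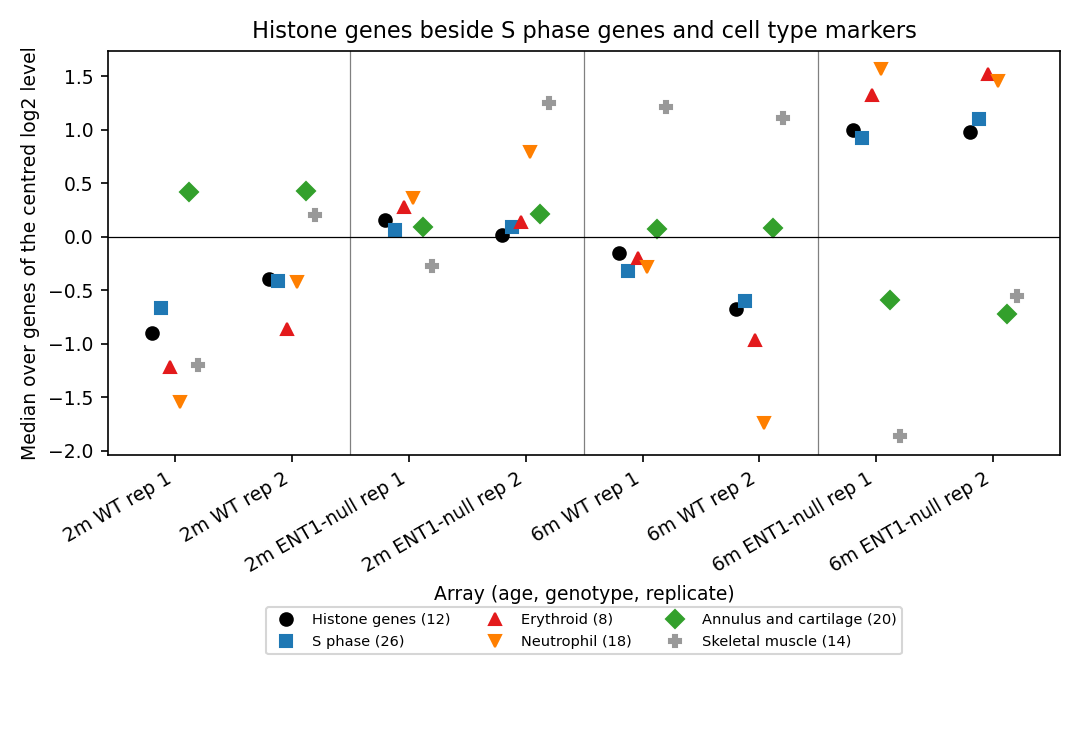
Median over the genes of a list of the log2 level, each gene centred on its mean over the 8 arrays (vertical axis), on each array (horizontal axis), for the 12 histone genes tested and 5 other lists, with the number of genes in brackets. The 12 histone genes run from -0.90 to 1.00 and lie close to the S phase genes on each array. The annulus and cartilage median is lowest in the ENT1-null pools at 6 months. Over all 21 histone genes, not plotted, the median in those pools was 0.35 and 0.59, against 0.92 and 1.10 for the S phase genes.

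Genes of DNA replication were higher beside the histone genes. Of 26 tested genes of S phase, 25 were called higher in ENT1-null at 6 months and 0 lower, with a median of 1.52. Of all genes tested, 21.2% were called higher and 17.6% lower at 6 months, and 0.683% either way at 2 months. Rrm1, a subunit of the enzyme that makes deoxynucleotides, rose by 1.87 ± 0.15, Mcm4, a subunit of the replicative helicase, by 1.58 ± 0.11, and Pole, the catalytic subunit of a replicative polymerase, by 1.98 ± 0.16 (adjusted p = 0.00038 for each). At 2 months 1 of the 26 was called, with a median of 0.63, and 0 to 10 were called without 1 pool, the most without either WT replicate of 6 months. Their centred medians on the arrays were -0.67 and -0.41, 0.06 and 0.09, -0.33 and -0.60, and 0.92 and 1.10, in the order of groups used above. Within each WT pair the higher pool was that with the higher histone median. Within each ENT1-null pair it was the pool with the lower histone median.

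The factors that make and process histone mRNA had a smaller median. Of 18 tested, 10 were called higher at 6 months and 0 lower, beside 21.2% and 17.6% of genes tested, with a median of 0.31. At 2 months 0 were called (median 0.02), beside 0.683% of genes tested. Slbp, which binds the stem-loop of histone mRNAs, rose by 1.18 ± 0.15 (adjusted p = 0.0009). Casp8ap2, a component of the histone locus body where these genes are transcribed, rose by 0.86 ± 0.09 (adjusted p = 0.0005), and Tut7, an enzyme that adds uridines to RNA ends, by 0.90 ± 0.10 (adjusted p = 0.0007). The count fell to 6 without replicate 1 of the WT group or replicate 1 of the ENT1-null group at 6 months.

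Of 18 histone chaperones and modifiers of new histones, 12 were called higher at 6 months and 1 lower, with a median of 0.66. The shares of all genes tested were 21.2% and 17.6%. At 2 months 0 were called, beside 0.683% of genes tested. Hat1, which acetylates newly made H4, rose by 0.99 ± 0.08, Chaf1a, a subunit of the chaperone that loads histones behind the replication fork, by 1.16 ± 0.13, and Supt16, a subunit of FACT, by 0.82 ± 0.08. Ipo4, an importin that carries histones into the nucleus, was the one that fell, by 0.27 (adjusted p = 0.039).

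Replacement and other variant histones gave 5 of 7 called higher, 0 lower and a median of 0.67 at 6 months, beside 21.2% and 17.6% of genes tested. At 2 months 0 were called, beside 0.683% of genes tested. H2ax, the variant phosphorylated at DNA breaks, rose by 2.21 ± 0.28, Cenpa, the centromeric form of H3, by 2.20 ± 0.26, and Macroh2a1, an H2A variant with a large added domain, by 0.93 ± 0.13. The count was 3 when any 1 pool of the 6-month groups was left out. Of the 3 linker histone genes tested, H1f5 rose by 2.59 ± 0.39 (adjusted p = 0.0019), while H1f3, at 0.42 ± 0.16 (adjusted p = 0.067), and H1f2, at 0.15 ± 0.09 (adjusted p = 0.25), were not called. The difference between these genes was not tested, and 2 of the 3 were called without replicate 1 of either 6-month group.

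Copies of these genes are nearly identical in sequence, and 37 further probe sets named several histone genes each, among them the only ones for H3. They cannot be given to a gene, and probe sets that name 1 gene may still bind mRNA of a near-identical copy, so the values above are uncertain to that extent. The values of 3 of the 37 repeated those of another, which left 34: 9 for H2A, 7 for H2B, 12 for H3, 5 for H4 and 1 for H2B with a linker histone. These 34 named only 11 combinations of genes, and the 12 for H3 only 2. Their counts are therefore not counts of separate genes. In a fit over all 25950 probe sets at or above the same level, 19 of the 34 were tested. At 6 months 9 were called higher in ENT1-null and 0 lower, beside 14.9% and 11.9% of the probe sets tested, with a median of 0.65 against -0.05 over all probe sets tested, and 0 were called at 2 months, beside 0.00385% in either direction.

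By family, the calls at 6 months were 3 of 4 for H2A, 4 of 7 for H2B, 1 of 5 for H3, 1 of 2 for H4 and 0 of 1 for the mixed probe set. The H3 probe set that was called read 9.09 and 9.24 in WT against 9.60 and 9.52 in ENT1-null at 2 months, and 9.35 and 8.99 in WT against 9.68 and 9.95 in ENT1-null at 6 months. Its ENT1-null pools lay above the WT pools at both ages, by 0.65 ± 0.15 at 6 months (adjusted p = 0.022). The widest gap was in an H2A probe set under the filter level, shared by 10 genes, at 4.20 and 4.85, 6.84 and 6.21, 5.63 and 4.26, and 7.46 and 7.80. A probe set shared by 4 H2B genes went the other way, at 9.77 and 9.33, 8.97 and 9.03, 9.53 and 9.86, and 8.35 and 9.31, and was not called (-0.87 ± 0.31, adjusted p = 0.08). Other probe sets naming the same 4 genes were higher in ENT1-null at 6 months, by 0.44 ± 0.17 (limma adjusted p = 0.095) and 0.70 ± 0.19 (adjusted p = 0.037). Probe sets of these genes thus disagreed in direction. Only 1 of the 19 was called without replicate 2 of the 6-month WT group.

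**Figure D4:**
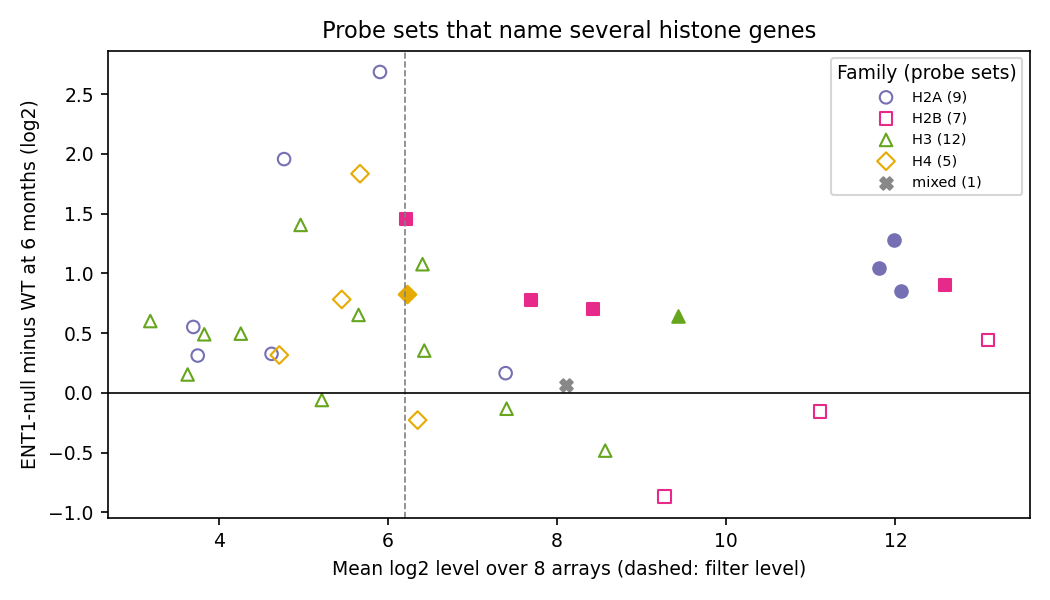
Difference between ENT1-null and WT at 6 months (log2, vertical axis) against the mean log2 level (horizontal axis) of the 34 probe sets that name several histone genes, by family, with filled symbols for those called. The differences run from -0.87 to 2.69, and 9 of the 19 probe sets to the right of the dashed filter level of 6.21 were called.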

How the data were processed

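The deposited values are log2 expression values, 1 per probe set and array. The authors made them with RMA, per the submitters' processing notes, which equalizes the probes' distributions across arrays, so a change shared by every gene is largely removed. The RMA version and genome build: not given in the sources used here. How cDNA was primed is not given in the labels' protocols, and most histone mRNAs lack a poly(A) tail. Array medians ran from 6.77 to 6.82.

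The brightest single-gene probe set stood for each of 22180 genes, and the 15526 with a mean at or above the 30th percentile (6.21) were tested. One fit with 4 group means over the 8 arrays was made with limma 3.58.1 in R 4.3.3, tested on simulated data, with Benjamini-Hochberg adjustment over all genes and a threshold of 0.05. The SE printed is the moderated one, and 2 arrays a group limit the precision. Array values are given for the genes of each family with the largest and smallest moderated statistics at 6 months and for those that decided a count; H2ac20 and H4c14 were chosen after their values were seen. Other lists are shown by up to 3 genes with the largest statistic at 6 months, and Ipo4 was named after its value was seen.

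The histone genes, the lists and the alternatives were chosen with earlier results of these data known. The linker histone list, the GGTCCG motif and the fit over all probe sets were added after seeing the data. A planned comparison of protein sequences was not made, since no protein table was used here. Replicate numbers were not treated as pairs, since the labels name no pairing of the pools. The correlation of same-numbered deviations was 0.41 between the genotypes at 2 months and -0.15 at 6 months, which cannot settle whether pools were paired.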

Additional observations from a re-analysis of the deposited data

Results flagged for a closer look

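H2bc14 was lower in both ENT1-null pools than in both WT pools at 2 months and higher in both at 6 months (4.72 and 5.06 in WT against 4.52 and 4.58, then 4.40 and 4.87 against 5.05 and 5.11). The difference between the ages was 0.78 (log2) and did not pass limma's test with every gene in the fit (adjusted p = 0.12). H2bc22 turned the same way, with a difference between the ages of 0.43 (adjusted p = 0.11). H4c2 turned the opposite way, from higher to lower in ENT1-null, with a difference of -0.48 (adjusted p = 0.10). These 3 genes stood out because every pool of a genotype moved one way at 2 months and the other way at 6 months. Of all 22180 genes, 1167 (5.26%) turned in that way, and all 3 histone genes had means under the filter level.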

How the results depend on the processing

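At 6 months the count of histone genes called higher (11 of 12) stayed within 1.5 times under every alternative run except the 50th-percentile filter, where 6 of the 6 genes still tested were called; leaving out a pool gave 9 to 11. At 2 months (0 called) the count was 2 with each array centred on its median (H2bc18 and H2bc9), 1 with eBayes trend and robust (H2bc18), and 0 to 4 without 1 pool. For the change of the genotype difference between ages (0 called) it was 1 with the 50th-percentile filter, 2 with centring, 1 with trend and robust, and 0 without any 1 pool. For age in ENT1-null mice (7 called) it was 4 with the 50th-percentile filter and 3 to 7 without 1 pool, and 9 with only the groups compared. The fewer genes that the stricter filter tests account for the falls under it; the other causes were not tested. Without 1 pool, the change between ages ran from -0.066 to 0.94 for H2ac10, -0.28 to 1.25 for H2ac15 and -0.041 to 0.29 for H4c12, and the WT age difference of H2bc3 from -0.0020 to 0.56.

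With the replicate block the counts were 0 at 2 months, 11 at 6 months, 0 for the change between ages, 0 for age in WT and 6 for age in ENT1-null, H2bc12 losing its call (1.45). The labels do not say whether pools of the same number belong together. Over all genes, applying quantile normalization again turned the split at 6 months from 3295 higher and 2727 lower to 2775 and 3431, and centring turned that at 2 months from 46 and 60 to 292 and 147. Again with quantile normalization, that of the change between ages went from 398 and 293 to 369 and 569. Among the probe sets naming several genes, 1 to 8 were called at 6 months without 1 pool and 6 with the replicate block. The change of the genotype difference between ages could not be fitted with only the groups compared, since it needs all 4 groups. Low signal may limit the 9 genes under the filter level, and H4c12, read near the top of the scale, may be limited there. Neither limit was tested.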
